A study of Mus musculus with 4 samples.

Results

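Beta-catenin and Tcf genes were examined for binding by Tfcp2l1, a DNA-binding protein related to the CP2 factors. The set comprised 10 genes that act inside the cell in Wnt signalling: Ctnnb1, Apc, Axin1, Axin2, Gsk3b, Tcf7, Tcf7l1, Tcf7l2, Lef1 and Cdx1. Peaks were taken if their summit lay inside one of these genes or within 50 kb of an end. That gave 126 of the 57614 peaks of repeat 1 and 112 of the 51610 peaks of repeat 2, at 10 of 21887 protein-coding genes. The peaks were chosen by gene names and positions and not by a measured value. The genes themselves were chosen with earlier results of these data known.

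The cells were wild-type mouse embryonic stem cells. They grew in medium supplemented with 3 µM CHIR99021, which inhibits Gsk3, 1 µM PD0325901, which inhibits Mek, and LIF at 1000 units/mL. Each of the 2 repeats had 1 Tfcp2l1 ChIP library, made with 10 µg of a custom antibody, and 1 input library of chromatin without immunoprecipitation. Nothing states that the repeats were separate cultures, and differences between them may be technical. Peak lists measure binding and not expression, so the cell type could not be checked against marker genes.

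In canonical Wnt signalling, beta-catenin is held low by a destruction complex in which Apc and the Axin proteins are scaffolds and the kinase Gsk3 marks beta-catenin for degradation. When Gsk3 is inhibited, by a Wnt signal or by CHIR99021, beta-catenin accumulates, enters the nucleus and binds the Tcf and Lef proteins on DNA. In mouse embryonic stem cells Tcf7l1 is known chiefly as a repressor of pluripotency genes that beta-catenin relieves, and Axin2 and Cdx1 are well-known targets of the pathway.

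Start regions of 3 of the genes are shown first, because they differ in what was found there. Of the 7 members with a start in the RefSeq promoter table (GRCm38.p6), which gives 250 bases before and 50 after each start, 1 had a peak of both repeats over the listed promoter (Axin2). That is 1 of their 13 listed promoters (7.69%), against 19.3% of all 32851, and so not above the background. Another gene had a peak of repeat 1 only (Ctnnb1). At Tcf7l1 the nearest shared peak ended 177 bp (repeat 1) and 227 bp (repeat 2) from the promoter, on the transcribed side. Capitals mark matches, on either strand, to CCNG followed by any 6 bases and CCNG again, a spaced pair of half-sites of the kind known for CP2 proteins. Positions below count from 1 at the first printed base, and each sequence runs 5′ to 3′ on the gene's own strand.
Axin2, chr11:108920099-108920398, plus strand: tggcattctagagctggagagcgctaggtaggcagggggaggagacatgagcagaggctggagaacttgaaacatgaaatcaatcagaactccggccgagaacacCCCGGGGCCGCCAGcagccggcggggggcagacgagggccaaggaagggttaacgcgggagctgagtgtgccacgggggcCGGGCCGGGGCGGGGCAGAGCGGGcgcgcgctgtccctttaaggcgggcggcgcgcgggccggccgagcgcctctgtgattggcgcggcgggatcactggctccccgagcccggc
Ctnnb1, chr9:120933150-120933449, plus strand: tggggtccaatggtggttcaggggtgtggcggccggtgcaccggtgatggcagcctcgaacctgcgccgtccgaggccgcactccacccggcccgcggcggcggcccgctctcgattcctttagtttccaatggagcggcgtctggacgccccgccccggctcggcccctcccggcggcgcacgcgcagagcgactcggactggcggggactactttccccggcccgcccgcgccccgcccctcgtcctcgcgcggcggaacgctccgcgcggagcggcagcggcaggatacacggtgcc
Tcf7l1, chr6:72788996-72789295, minus strand: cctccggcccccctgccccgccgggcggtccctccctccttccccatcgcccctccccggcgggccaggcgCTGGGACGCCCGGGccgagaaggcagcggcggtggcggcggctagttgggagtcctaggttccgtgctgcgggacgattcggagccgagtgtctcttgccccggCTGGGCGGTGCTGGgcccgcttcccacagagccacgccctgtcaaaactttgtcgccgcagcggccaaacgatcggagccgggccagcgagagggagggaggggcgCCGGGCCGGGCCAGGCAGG

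The Axin2 promoter held 3 matches, at positions 106, 186 and 196, of which the last 2 overlap and are printed as 1 run. The Ctnnb1 promoter held none, and that of Tcf7l1 held 5, of which 3 overlap near its end. The stricter form, CCAG with the same spacing to a second CCAG and always also a match to the looser form, occurred once, in Tcf7l1 at position 176. Of the 13 listed promoters of the 7 genes, 4 held the looser form (30.8%), against 29.5% of all promoters, so the members' share was near the background. The stricter form was in 1 of 13 (7.69%), against 3.44% of all promoters. The looser form was found in 47.9% of the 6351 promoters under a shared peak and in 23.1% of the 24086 without a peak. These 2 groups of promoters also differed in median GC content, 60.7% and 50.0%, and the part of GC content in that difference was not tested. GC content was 70.0% in the Axin2 promoter and 75.3% in each of the other 2 printed, against a median of 52.7% over all promoters. The Tcf and Lef motif CTTTGAT was in 0 of the 13 member promoters, against 3.73% of all, and CTTTGTT in 1 (the second start of Tcf7l2), against 5.85%.

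Peaks that had 1 bp or more in common with a peak in the other list are called shared. Fold enrichment is the authors' value for a peak, ChIP over the local background, and where 2 values are joined by "and" the first is from repeat 1 and the second from repeat 2. With 2 peak lists and no other condition, no test was made of any difference, and intervals cover counting error only. The lists rested on 19353473 and 22555373 ChIP tags after the authors' duplicate filter, against 18446758 and 23825930 input tags. Median fold enrichment over the whole lists was 12.1 and 10.2.

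All 10 genes had at least 1 shared peak in this window, as did 80.6% of all protein-coding genes, so having one does not set the members apart. At least 4 shared peaks were found at 9 of the 10, against 50.2% of all genes, with Ctnnb1 the member below that number. A shared peak of at least 10-fold in both repeats was present at 10 of 10, against 71.7% of all genes. The members are long, with a median length of 83.2 kb against 17.2 kb over all genes, and a longer gene has a wider window and more room for peaks. Counts were therefore also taken per 100 kb of window. On that scale the median of the members was 4.36 shared peaks per 100 kb, against 2.58 over all genes, and 9 of 10 members lay above the median gene.

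In all, 100 of the 126 peaks of repeat 1 in the windows were shared (79.4%, exact 95% interval 71.3% to 86.1%), against 76.1% of the rest of that list. In repeat 2, where some peaks overlap more than 1 peak of repeat 1, it was 97 of 112 (86.6%, 78.9% to 92.3%), against 84.8% of the rest. The intervals hold the values of the rest of each list. Median fold enrichment of the shared window peaks was 14.3 and 12.2, against 15.5 and 11.5 over the shared peaks of the rest. The typical site at these genes was thus slightly lower than elsewhere in repeat 1 and slightly higher in repeat 2, with no common direction. The 26 peaks of repeat 1 alone and 15 of repeat 2 alone had lower medians, 7.90-fold and 6.67-fold. These were near the 7.73-fold and 6.56-fold of such peaks over the whole lists. Their maxima were 14.0-fold (in Tcf7l2) and 10.6-fold (in Tcf7l1).

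Not every site in a window is closest to the member. Of the 100 shared peaks of repeat 1, 51 lay inside the member gene and 19 inside another protein-coding gene, and for 74 the member was the nearest gene. Together 70.0% lay inside a protein-coding gene, against 55.7% of all shared peaks of repeat 1. The windows were drawn around genes, so this share is not independent of the rule that chose the peaks. Peaks outside the member were about as strong as those inside, with medians of 13.9-fold and 14.5-fold outside and 14.3-fold and 11.4-fold inside. Nearer neighbours are named below at the sites described.

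**Figure D1:**
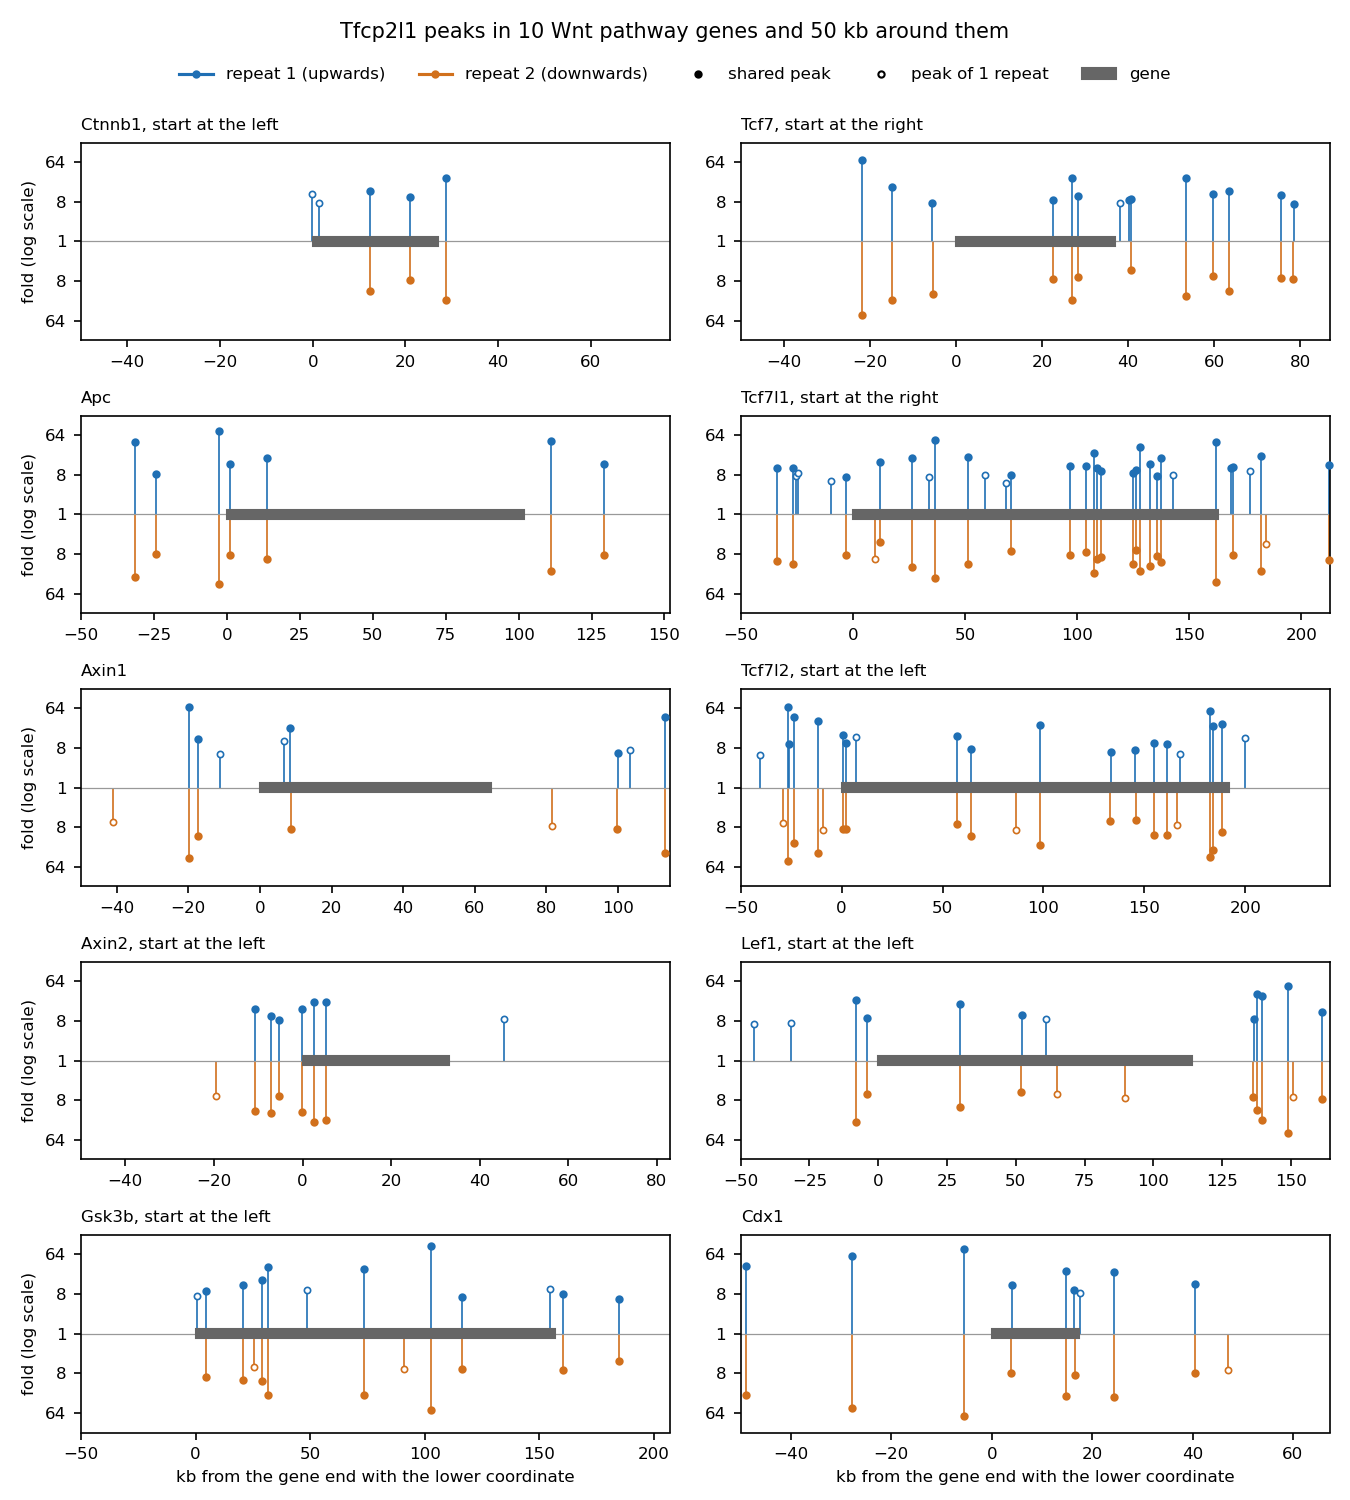
Peaks in each gene and 50 kb around it. The horizontal axis is the distance of the summit from the gene end with the lower coordinate, in kb, and the vertical axis is fold enrichment on a log scale, upwards for repeat 1 and downwards for repeat 2; filled points are shared peaks and open points peaks of 1 repeat. Shared peaks run along most of Tcf7l1 (17 of the 24 in its window are inside it) and Tcf7l2 (12 of 16). The 6 of Axin2 gather around its start, and Ctnnb1 has 3.

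Ctnnb1 encodes beta-catenin itself and lies on chromosome 9 at 120933400 to 120960507, 27.1 kb long. It had the fewest shared peaks of the set, 3, or 2.36 per 100 kb (exact 95% Poisson interval 0.487 to 6.90), and 52.3% of genes were denser. Its 3 shared peaks all lay within 10 kb, and with a window of that size 22.1% of genes were denser. The strongest lay 1.73 kb beyond the end of the gene, at 120961504 to 120962751, with 28.0-fold and 21.6-fold enrichment from 98 and 114 tags. Inside the gene, 12.2 kb from the nearer start, a peak had 14.3-fold and 13.5-fold enrichment, and 20.8 kb from it another had 10.5-fold and 7.46-fold. The shared peaks of Ctnnb1 thus lay towards the middle and the end of the gene. At its start, repeat 1 had a peak with its summit 128 bp before the first listed start, with 57 tags and 12.1-fold enrichment. A weaker peak of repeat 1 lay 1.08 kb downstream of the nearer start, with 18 tags and 7.73-fold enrichment. No peak was called at either place in repeat 2, so both sites stood in 1 of 2 lists. The number of repeat 2 tags at those positions is not part of the peak lists used here.

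Among the scaffolds and kinase of the destruction complex, Gsk3b held the site with the highest fold enrichment of any member in repeat 1. Gsk3b encodes the kinase that CHIR99021 inhibits and lies on chromosome 16 at 38089001 to 38246084. The site was inside the gene, 103 kb downstream of its start, at 38191238 to 38192326. It had 99.5-fold and 54.4-fold enrichment from 273 and 289 tags, and 1.41% of peaks in repeat 1 and 3.13% in repeat 2 had a higher fold. Another 2 sites inside the gene, 31.8 kb and 73.4 kb from the start, had 33.3-fold and 24.7-fold and 30.0-fold and 25.5-fold enrichment. Of the 9 shared peaks, 7 were inside Gsk3b and the other 2 inside Nr1i2, the gene of the pregnane X receptor, with 8.21-fold and 6.67-fold at one and 6.28-fold and 4.17-fold at the other. The start of Gsk3b had no shared peak within 1 kb, and the peak nearest to it, of repeat 1 alone, had 7.25-fold enrichment.

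Axin2, a scaffold that is itself induced by Wnt signalling, had its sites around the start. The gene lies on chromosome 11 at 108917828 to 108950783 on the plus strand, and its listed start at 108920349 lies inside that span. A shared peak at 108919786 to 108921502 covered the promoter printed above, with its summit 129 bp downstream of the start, 21.3-fold and 25.5-fold enrichment and 108 and 126 tags. The next lay 2.82 kb downstream of the start (108921947 to 108923618, 21.7-fold and 23.2-fold, 131 and 122 tags). These 2 were the strongest of the gene, and which came first depended on the measure of strength. A peak 186 bp outside the lower end of the gene had 15.0-fold and 15.3-fold enrichment, and 3 others lay 5.35, 7.14 and 10.7 kb outside it. Their enrichment was lowest at the first (8.21-fold and 6.54-fold) and at most 15.0-fold in repeat 1 and 16.1-fold in repeat 2. All 6 shared peaks thus fell between 10.7 kb outside the lower end and 2.82 kb downstream of the start, and for all 6 the nearest gene was Axin2, the only protein-coding gene in its window. None of the 6 was above 21.7-fold in repeat 1, the lowest maximum of the set, or above 25.5-fold in repeat 2, the second lowest. The density was 4.51 per 100 kb (1.66 to 9.82), with 31.0% of genes denser. With a window of 10 kb it was 9.44 per 100 kb, with 10.9% of genes denser, and with peaks of at least 10-fold in both lists 17.4% were. With a window of 100 kb it was 3.01 per 100 kb, with 44.5% of genes denser, so the place of Axin2 depended on how close to the gene peaks were counted.

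Axin1, the constitutively expressed scaffold, differed in that few of the sites in its window were its own. The gene lies on chromosome 17 at 26131217 to 26195811 among 8 other protein-coding genes. Of 5 shared peaks, 1 was inside Axin1, at 26139054 to 26140137, 8.28 kb from the lower end, with 23.03-fold and 8.63-fold enrichment. Its summits in the repeats were 446 bp apart, so that with summits within 100 bp as the rule Axin1 had 3 shared peaks and none inside the gene. The strongest in the window, at 26110059 to 26112434 with 69.1-fold and 40.4-fold enrichment and 350 and 321 tags, lay 19.9 kb outside Axin1 and 1426 bp from Pgap6. The next, 41.0-fold and 30.6-fold, lay 215 bp from Fam234a and 48.7 kb from Axin1, close to the limit of the window. At a limit of 10 kb Axin1 therefore kept 1 shared peak.

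Apc encodes the large scaffold whose loss activates the pathway in intestinal tumours, and lies on chromosome 18 at 34220297 to 34322190. All 7 of its peaks in repeat 1 and all 7 in repeat 2 were shared. The strongest was 2.75 kb outside the lower end (34216748 to 34218181), with 80.7-fold and 38.3-fold enrichment and 250 and 176 tags. Both shared peaks inside the gene lay near that end, at 1.14 kb (13.9-fold and 8.24-fold) and 13.7 kb (19.3-fold and 10.6-fold), and the rest of the gene had none. Farther out on the same side a site at 31.6 kb had 44.0-fold and 27.3-fold enrichment. On the other side the sites, at 9.28 and 27.4 kb, were inside Srp19, a signal recognition particle gene (47.2-fold and 19.2-fold), and inside Reep5 (14.5-fold and 8.24-fold). All 7 were higher in fold enrichment in repeat 1, the direction that 78.2% of all one-to-one pairs in the series showed.

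The 4 genes of the Tcf and Lef factors carried 62 of the 100 shared peaks, or 6.85 per 100 kb over their windows, and the 4 genes of the destruction complex 27, or 3.57 per 100 kb. The difference lay in number and not in strength, since median fold enrichment was 13.0 and 11.8 at the factor genes and 15.0 and 13.0 at the complex genes. It did not hold gene by gene, as Lef1 (4.20 per 100 kb) lay below Axin2 (4.51). Peaks of at least 10-fold in both lists were 31 of the 62 at the factor genes and 17 of the 27 at the complex genes, against 55.2% of all shared peaks. With this window of 50 kb the order by density, from high to low, was Tcf7, Tcf7l1, Cdx1, Tcf7l2, Axin2, Lef1, Gsk3b, Apc, Axin1 and Ctnnb1. The interval of each gene held the value of the next, so neighbours in that order did not differ beyond counting error. The order changed with the window: with 10 kb it was Cdx1 (13.4), Tcf7l1, Tcf7, Axin2, Ctnnb1 (6.37), Tcf7l2, Gsk3b, Apc, Lef1 and Axin1 (1.18). With 50 kb, the intervals of Tcf7 (5.06 to 16.2) and Tcf7l1 (5.85 to 13.6) lay above the 4.51 of Axin2 and the lower values of Lef1, Gsk3b, Apc, Axin1 and Ctnnb1. Those genes had intervals of their own, however, which reached from 6.65 (Gsk3b) up to 9.82 (Axin2) and overlapped both. Differences between these genes were not tested.

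**Figure D2:**
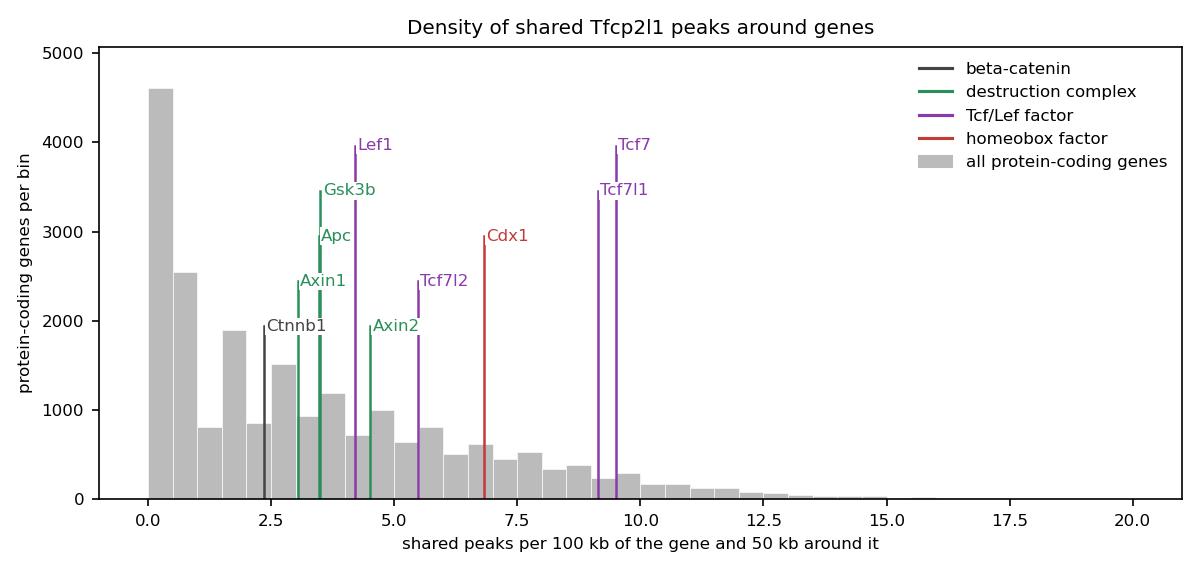
Shared peaks per 100 kb of the gene and 50 kb on each side (horizontal axis) for all 21887 protein-coding genes (grey bars, number of genes per bin; values above 20 are in the last bin) and for the 10 members (coloured lines by role). Tcf7 at 9.50 and Tcf7l1 at 9.14 are the densest members with this window, and Ctnnb1 at 2.36 is the sparsest; with 10 kb Cdx1 is the densest and Axin1 the sparsest.

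Tcf7l1 encodes the repressor of the family and had the most sites. The gene lies on chromosome 6 at 72626371 to 72789045 on the minus strand. It had 24 shared peaks, 17 of them inside the gene, or 9.14 per 100 kb, and 0.201% of genes had more. By density, 6.61% of genes were above it. The site with the best rank over both repeats was near the start, with its summit 839 bp downstream, at 72786821 to 72788818, with 44.9-fold and 35.3-fold enrichment and 264 and 206 tags. In repeat 1 a site 126 kb downstream was higher, at 72662513 to 72663727, with 51.2-fold and 27.7-fold enrichment and 155 and 158 tags. Further sites inside the gene included 35.04-fold and 20.0-fold at 34.6 kb and 25.1-fold and 22.0-fold at 55.3 kb downstream. The median of the 24 was 13.0-fold in repeat 1, so the gene stood out by the number of its sites rather than their strength. Of the 7 outside it, 1 lay in Elmod3 (11.4-fold and 11.4-fold), 1 in Retsat (11.7-fold and 13.7-fold) and 1 nearest to Kcmf1 (13.5-fold and 11.0-fold). Of the 32 peaks of repeat 1, 8 were not found in repeat 2, none of them above 9.66-fold.

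Tcf7, which encodes Tcf1, had 13 shared peaks in a window of 136.9 kb (9.50 per 100 kb, with 5.84% of genes denser), and 6 of them lay within 10 kb. This density was above that of Tcf7l1 with windows of 50 and 100 kb, but Tcf7l1 was denser with 10 kb, with summits within 100 bp as the rule for sharing, and in each repeat alone. Counting peaks of at least 10-fold in both lists, Tcf7 (3.65 per 100 kb, 18.5% of genes denser) also lay below Tcf7l1, Cdx1 and Axin2. The gene lies on chromosome 11 at 52246527 to 52283383 on the minus strand. Its strongest site by far, 72.5-fold and 47.1-fold from 191 and 178 tags, lay 21.9 kb beyond the end of the gene at 52224117 to 52225188, and 5.90 kb from Skp1, a ubiquitin ligase subunit gene. The next 2 peaks towards Tcf7 lay inside Skp1 (17.4-fold and 22.0-fold, and 7.73-fold and 16.0-fold). Inside Tcf7 there were 3, the strongest at 27.9-fold and 22.1-fold enrichment, 9.04 kb downstream of the nearer start. The 2 shared peaks farthest out on the side of the start were nearest to Vdac1 (11.4-fold and 6.67-fold, and 6.99-fold and 7.06-fold). On that side, a site 16.7 kb outside the gene had 27.5-fold and 17.3-fold enrichment. The 7.73-fold and 16.0-fold site was the one that most favoured repeat 2 among one-to-one pairs of the set.

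Tcf7l2 encodes the family member best known from the intestine and lies on chromosome 19 at 55741797 to 55933659 on the plus strand, with no other protein-coding gene in its window. Of 16 shared peaks (5.48 per 100 kb), 12 were inside the gene. The strongest was 26.7 kb outside the end that holds the start, at 55714498 to 55715491, with 68.8-fold and 47.9-fold enrichment and 229 and 202 tags. Others upstream had 40.0-fold and 18.1-fold, 23.8 kb away, and 33.3-fold and 30.8-fold, 11.6 kb away. A second group lay near the other end of the 192 kb gene, at 182.6, 183.8 and 188.6 kb from the lower end, with 55.1-fold and 38.9-fold, 25.6-fold and 27.1-fold, and 27.7-fold and 10.2-fold enrichment. Between these groups the sites were weaker in repeat 1, except for 26.7-fold and 20.0-fold inside the gene, 98.2 kb from the lower end. In repeat 2 the other sites there reached 12.95-fold, above the 10.2-fold of the site at 188.6 kb. A peak 843 bp downstream of the first listed start had 15.9-fold and 9.03-fold enrichment. Of the 7 members with a listed start, Axin2, Tcf7l1 and Tcf7l2 had a shared summit within 1 kb of one, 3 of 7, against 27.1% of all genes with a listed start.

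Lef1, the gene of an activating factor of the family, lies on chromosome 3 at 131110297 to 131224357 on the plus strand. Its 9 shared peaks (4.20 per 100 kb) fell into those at the gene and those at a neighbour. The 3 strongest by fold in repeat 1 were inside Hadh, a gene of fatty acid oxidation, which held 5 of the 9. The site at 131258678 to 131259863 had 51.6-fold and 44.3-fold enrichment and 174 and 185 tags, 34.9 kb beyond the end of Lef1. Nearer to Lef1, the strongest was 7.93 kb upstream of the start, with 24.2-fold and 25.5-fold enrichment from 75 and 109 tags. Inside the gene there were 2, at 19.3-fold and 11.4-fold and at 11.0-fold and 5.10-fold. For 4 of the 9, which were also those within 10 kb, the nearest gene was Lef1, and no shared summit lay within 1 kb of any of its 4 listed starts.

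The window of Cdx1, a homeobox gene and Wnt target, had the strongest set of sites by the median of its shared peaks, 25.7-fold and 26.4-fold. Most of these sites, the strongest among them, were inside or nearest to other genes. The gene is short, 17.3 kb on chromosome 18 at 61018862 to 61036199, and its window held 8 shared peaks (6.82 per 100 kb, with 15.7% of genes denser). The site with the highest fold, at 61011983 to 61014913, had 86.8-fold and 75.4-fold enrichment, with 444 and 402 tags the most of any peak in the set. It lay 5.58 kb outside the lower end of Cdx1 and inside Slc6a7, a neuronal proline transporter gene. Further on that side, sites of 58.2-fold and 50.8-fold and of 35.3-fold and 25.9-fold were nearest to or inside Camk2a. Inside Cdx1 itself there were 3 shared peaks, the strongest at 61033018 to 61034339, 14.7 kb from the lower end, with 26.4-fold and 26.9-fold enrichment. One at 3.96 kb from the lower end had 12.9-fold and 8.08-fold enrichment. Another, at 16.5 kb and so less than 1 kb from the upper end, had 9.90-fold and 8.75-fold. A peak of repeat 1 alone, inside Gm52351 and 0.308 kb outside that end, had 8.43-fold enrichment. The other 2 lay inside Gm52351 (24.95-fold and 27.5-fold) and Pdgfrb (13.5-fold and 7.81-fold). Cdx1 was thus the nearest gene of 3 of the 8, and 5 of the 8 lay within 10 kb of it, where 4.50% of genes were denser.

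**Figure D3:**
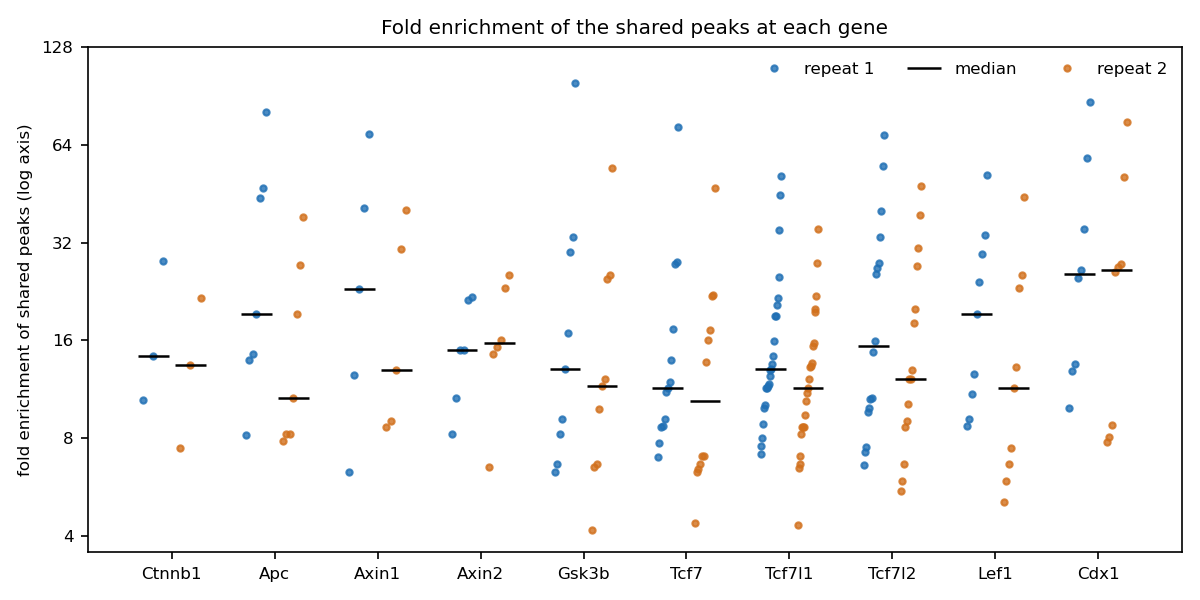
Fold enrichment of each shared peak (points, log axis) at each gene, for repeat 1 (blue) and repeat 2 (orange), with the median as a black bar. Single strong sites stand above the rest at Gsk3b (99.5-fold and 54.4-fold) and Tcf7 (72.5-fold and 47.1-fold). The window of Cdx1 has the highest median in both repeats, though Cdx1 is the nearest gene of only 3 of its 8 shared peaks.

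By the strongest shared site in the window, Gsk3b, Cdx1 and Apc were highest in repeat 1 (8.18%, 12.6% and 14.7% of genes had a stronger one). In repeat 2, Cdx1 and Gsk3b led (5.50% and 15.0%). Axin2 and Ctnnb1 had the weakest maxima, 21.7-fold and 28.0-fold in repeat 1 and 25.5-fold and 21.6-fold in repeat 2. Their order turned round between the repeats, so these 2 were not told apart. The median over the members of the strongest site was 68.9-fold and 42.4-fold, against 41.9-fold and 29.0-fold over the genes with a shared peak, and 8 of 10 members lay above that median gene in both repeats. Wide windows give more chances for a strong site, and that part in the difference was not tested.

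The repeats ranked the members' sites alike. Over 94 one-to-one pairs of shared peaks in the windows, fold enrichment had a Spearman's rho of 0.806, against 0.813 over 41701 pairs of the series, as a description across regions, which share libraries and depth. It was higher in repeat 1 in 72 of the 94 (76.6%), with a median ratio of 1.26 against 1.32 over the series. The middle 95% of ratios in the series ran from 0.656 to 2.75. Of the member pairs, 3 fell outside that range. One was inside Tcf7l1, 12.3 kb from the lower end, with 15.9-fold and 4.33-fold enrichment. The others were the site in Skp1 near Tcf7 and one inside Tcf7l2 with 7.49-fold and 13.0-fold. Summits of the 100 shared peaks lay a median of 25 bp from their partners, against 28 bp over the series. Within 100 bp were 90 of the 100, near the 88.3% of all shared peaks.

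**Figure D4:**
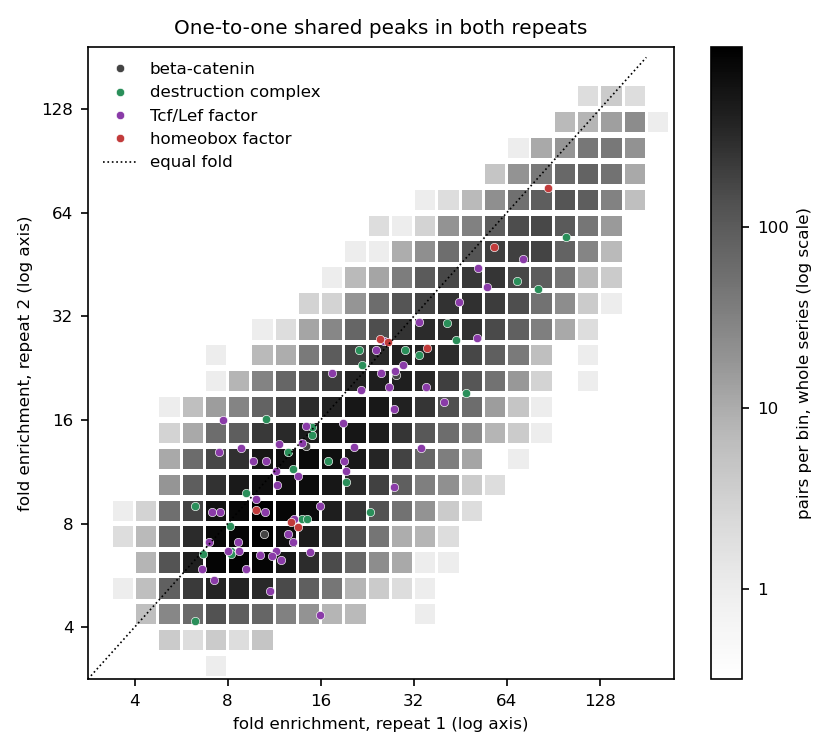
Fold enrichment in repeat 2 against repeat 1 on log axes for one-to-one shared peaks. Grey squares are the 41701 pairs of the series (shade: pairs per bin, log scale), coloured points the 94 pairs at the members by role, and the dotted line marks equal fold. Most points lie below the line, since 76.6% of the member pairs were higher in repeat 1.

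Other genes of the pathway were counted in the same window of 50 kb. All 18 genes of the list of further destruction complex and Dishevelled components had a shared peak, against 80.6% of all genes. By mean rank of fold over both repeats, here and for the following lists, its strongest sites were inside Csnk1e, a casein kinase gene (136-fold and 83.7-fold), in the window of Dvl3, a Dishevelled gene, but nearest to Eif2b5 (98.6-fold and 50.6-fold), and inside Btrc, which encodes the ubiquitin ligase subunit that recognises marked beta-catenin (68.6-fold and 65.0-fold). The median density of that list was 3.05 per 100 kb, against 2.58 over all genes.

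Of 18 genes in the list of nuclear cofactors, 17 had a shared peak, and the median density was 4.66 per 100 kb. These values include Tcf3 on chromosome 10 (14 shared peaks, 11.25 per 100 kb). In spite of its name, that gene is not Tcf7l1 and not of the Tcf and Lef family. The highest by mean rank were inside Kdm1a, a histone demethylase gene (83.2-fold and 91.5-fold), and inside Tle3, a Groucho corepressor gene (93.2-fold and 69.1-fold, 15 shared peaks). Pygo2, a beta-catenin coactivator gene, had 15 shared peaks in its window and 14.3 per 100 kb, but its strongest site (98.1-fold and 64.8-fold) was nearest to Pmvk. Tle1, another Groucho gene, had no shared peak, with 3 peaks of repeat 1 and 1 of repeat 2 that did not overlap.

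Of 8 genes of surface receptors and their turnover, 7 had a shared peak, and the median density was 2.36 per 100 kb, below that of all genes. The highest by mean rank were in the windows of the coreceptor genes Lrp5 (82.9-fold and 68.3-fold, nearest to 1810055G02Rik) and Lrp6 (79.2-fold and 27.9-fold, nearest to Bcl2l14), and inside Znrf3, which encodes a ligase that removes Frizzled receptors (47.4-fold and 36.1-fold). Rspo1, a secreted activator gene, had 2 peaks of repeat 1 and none of repeat 2. Of 20 Wnt target genes, which include some of the genes above, 19 had a shared peak, at a median of 3.79 per 100 kb, led by Esrrb (168-fold and 127-fold), Klf2 (154-fold and 109-fold, nearest to Eps15l1) and Nanog (135-fold and 95.4-fold), all pluripotency genes. The exception was T, the Brachyury gene, with 2 peaks of repeat 1 and none of repeat 2. The shares with a shared peak were 100%, 94.4%, 87.5% and 95% in the 4 lists, in the order given, against 80.6% of all genes. Median gene length in the same order was 26.8, 50.2, 99.2 and 7.61 kb, against 17.2 kb over all genes. Longer genes have wider windows and more room for a peak. Frat1 and Frat2 of the first list were counted apart but had the same strongest site. No test was made of the differences in share, and the lists were made with earlier results of these data known.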

How the data were processed

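The analysis used 2 peak lists, called by the authors per repeat and not pooled. Per the file headers, they came from MACS 1.4.1, ChIP against the input of the same repeat, with a p-value cutoff of 1e-05, tags of 35 bp, d of 200 bp and at most 2 duplicate tags per position. CASAVA 1.8.2 is also named, per the submitters' processing notes. The alignment tool is not given in these sources. Deposited tag counts are raw ChIP tags in a peak. The deposited score equals -log10 of the p-value times 10, the deposited fold enrichment is a ratio to local background, and the deposited FDR is a percent, from peaks called with ChIP and input exchanged.

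The processing notes name mm9, but positions fit GRCm38. The last peak on chromosome Y is at 90.8 Mb, and 13.3% of shared summits lie within 1 kb of a GRCm38.p6 start, against 3.78% for starts moved by 100 kb. Genes came from RefSeq tables of that build. The gene table has no strand or exons, so exons, introns and UTRs were not told apart. Strand and starts came from the promoter table as used here, which listed no start for Axin1, Apc or Cdx1.

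Matching and counting (Python 3.11.15, pandas 2.3.3, scipy 1.17.1) were tested on simulated peaks. Members and lists were chosen with earlier results of these data known. Named were all members, the 3 genes per list with the best mean rank of a shared peak, and those without one. For the members, the strongest shared peak, peaks within 1 kb of an end and the nearer neighbours of the sites described were named.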

Additional observations from a re-analysis of the deposited data

How the results depend on the processing

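No paired analysis was possible because each repeat has 1 peak list, made from its ChIP and input together, and no test compares groups. All 10 members had a shared peak with windows of 10 and 100 kb, with summits within 100 bp as the rule for sharing, with at least 10-fold enrichment, and with each repeat alone. With an FDR of 0 in both lists it was 9, without Axin2. Over all genes the share was 80.6% with the main setting and 71.7% with at least 10-fold enrichment. No share of all genes is given for the other settings, so the counts there do not set the members apart. The 100 shared peaks became 151 with a window of 100 kb, 55 with at least 10-fold enrichment and 16 with an FDR of 0. With each repeat alone all its peaks count, 112 to 126. The shared percentage of repeat 1 fell to 68.8% with at least 10-fold enrichment, and with an FDR of 0 it was 25.8% in repeat 1 and 57.1% in repeat 2. Median fold enrichment was 26.4 in repeat 1 and 21.6 in repeat 2 with at least 10-fold enrichment, and 12.5 in repeat 1 without repeat 2. The Wnt target list had 12 of 20 genes with an FDR of 0, likewise without a share of all genes beside it. An FDR of 0 was not a stricter limit on strength in repeat 2, where such peaks had a median of 11.0-fold. Shared percentages have no value with 1 repeat. By score or tags the strongest site changed at Axin2 alone. Depth limits what an unshared peak shows: weak sites may be missed in either repeat.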
